A study of Mus musculus with 20 samples.

Results

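Kidney cells carrying Sca-1, the surface protein encoded by Ly6a, were compared between day 21 and day 7 of culture in the roxadustat arm of the series. The 8 libraries are the 4 labelled roxadustat and day 21 and the 4 labelled roxadustat and day 7, of 20 libraries in all. The other 12 are 2 fresh libraries of each arm (day 0) and 4 control libraries at each culture time. By the labels, mice received intraperitoneal roxadustat at 33 mg/kg for 7 days, the kidneys were digested, and Sca-1+ cells were taken with magnetic beads. This 1 treatment text stands on control libraries too. Culture was in msc medium with FCS at 37 °C, 5% CO2 and 20% O2, and the series text speaks of culture with roxadustat in the medium. Which cultured cells also came from injected mice, the strain, sex and age of the mice, and whether replicates are separate animals or cultures are not given in the sources used here. Every p therefore measures only the spread between these libraries. Any handling of the cells between the days cannot be told apart from time in culture.

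Roxadustat blocks the prolyl hydroxylases that tag the alpha subunits of hypoxia-inducible factor (HIF) for destruction. With the enzymes blocked, HIF accumulates at normal oxygen, pairs with its ARNT partner and activates genes of glycolysis, angiogenesis, iron transport and, in interstitial fibroblast-like cells of the kidney, erythropoietin. The kidney interstitium holds fibroblasts, pericytes and vessels between tubules, whose epithelial cells can lose their specialised functions and take on repair programs when injured or placed in culture.

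The labels call the cells mesenchymal stem cell-like. Levels are given in CPM, read counts scaled to the size of the library with TMM factors. Ly6a was at 525, 518, 486 and 479 CPM at day 7 and 469, 515, 528 and 511 CPM at day 21. It was not called (adjusted p = 0.898) but was called higher with a trend in gene length, described below, removed (0.51 on the log2 scale, adjusted p = 1.02e-09). The surface gene Nt5e (CD73), listed here with the fibroblast markers, was at 331 and 412 CPM on average. Pdgfrb, a receptor of pericytes and fibroblasts, was at 115 and 119.5 CPM, whereas Pdgfra, a fibroblast receptor, was at 5.5 and 4.42 CPM. Genes that define kidney tubule epithelium were present beside them: Cdh16 (kidney-specific cadherin) averaged 207 and 115 CPM, the endocytic receptor gene Lrp2 170.1 and 174 CPM, and the injury marker Havcr1 (KIM-1) 907 and 546 CPM. Other epithelial genes, such as Cdh1 and Epcam, were low. Summed per library at day 7, the 23 fibroblast genes tested took 10498 to 11911 CPM. The 25 general epithelial genes took 706 to 727 CPM, the 24 proximal tubule genes 349 to 399 CPM and the 20 tubule injury and repair genes 20286 to 22756 CPM. Stromal and tubule genes were thus both present, and these sums do not give the share of each cell type. Epo itself had 1 count in replicate 2 of day 7 and 0 in the other 7 libraries, so no change in it could be seen at this depth. In such bulk libraries, fewer cells of a type and less RNA per cell cannot be told apart.

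Total counts per library ran from 16730240 to 19903160 at day 7 and from 8502011 to 17589332 at day 21, so the day 21 libraries were shallower. The biological coefficient of variation between libraries was 6.4% at day 7 and 7.21% at day 21. By this fit 11526 of 18731 genes tested (61.5%) differed between the days by edgeR's quasi-likelihood test at an adjusted p of 0.05. Of all genes tested 5362 (28.6%) were higher at day 21 and 6164 (32.9%) lower. Among protein-coding genes the split was 23.5% higher and 39.4% lower. At least 2-fold differences were mostly rises, with 2580 genes (13.8%) higher and 476 (2.54%) lower. Protein-coding genes made up 1032 of these rises and 333 of these falls. A further 642 of the rises were unconfirmed transcripts (TEC), 314 antisense RNAs and 221 processed pseudogenes. The libraries of the 2 days did not overlap in 10582 genes (56.5%), with 4837 (25.8%) higher and 5745 (30.7%) lower. Protein-coding genes alone had a median log2 fold change of -0.12, against -0.03 over all genes. For lists of protein-coding genes, their split is the closer comparison. A share of called members near these values is no result about a gene list.

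Gene length and transcript class moved with the day in both arms. Among protein-coding genes with at least 1 CPM, the tenth with the shortest exons had a median log2 fold change of -0.48 in roxadustat and -0.36 in control cells. The tenth with the longest exons had 0.22 and 0.25. Genes annotated TEC (unconfirmed transcripts) had a median of 1.45, and 728 of 977 were higher, while sense-intronic RNAs had a median of 1.53. Together these 2 classes took 0.135% ± 0.0185 of counts at day 7 and 0.334% ± 0.0257 at day 21 (SD, n = 4 each). When the length trend was removed, 10561 genes were called, of which 6428 were higher and 4133 lower, so 60.9% of calls were rises in place of 46.5%, and the median of all genes moved to 0.10 from -0.03. Counts per list are therefore given below also with the length trend removed, in brackets as length-corrected, and the part of length and transcript class in these changes was not tested.

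**Figure D1:**
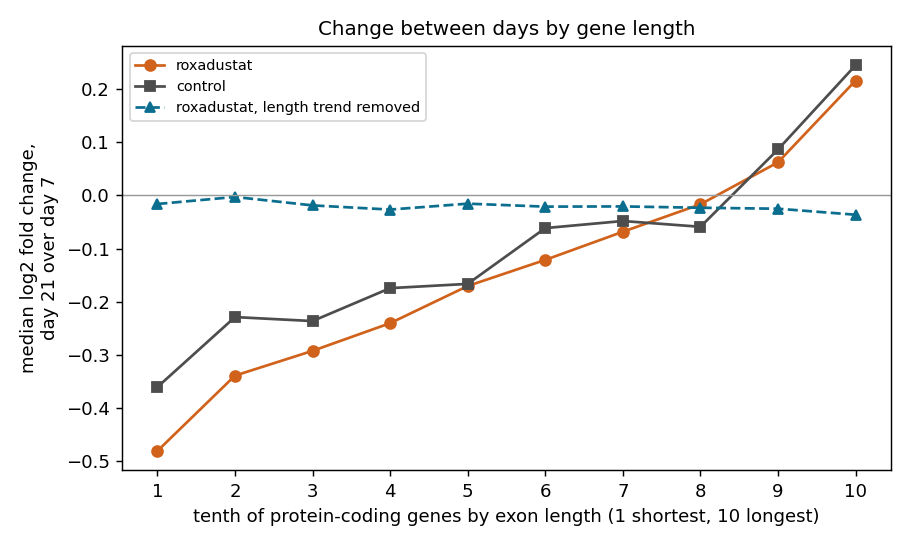
The y axis is the median log2 fold change of day 21 over day 7 and the x axis the tenth of protein-coding genes by exon length, shortest to longest, for roxadustat cells, control cells and roxadustat cells with the length trend removed. Both arms rise along the axis, in roxadustat cells from -0.48 to 0.22, and the corrected values stay close to 0.

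A further order ran through the libraries. It was taken from Pax2 after the values of that gene were seen, so Pax2 has it by choice. In 557 genes (2.97%) day 7 replicate 1 was lowest and replicate 4 highest, and day 21 replicate 2 was lowest and replicate 1 highest. This held for 8.47% of genes that rose and 0.178% of genes that fell. Gm26917, a predicted RNA locus with 8698, 9948, 10237 and 12712 CPM at day 7 and 23926, 12864, 16834 and 18768 CPM at day 21, has this order. It shares the order with Pax2, Pax8, Sox9, Fn1, Hspg2, Lama5, Col4a3, Igf1r, Igfbp5, Egr1, Notch1, Notch3, Arnt2, Cxcl12, Per1, Nr1d1, Srebf2, Ulk1, Col1a1 and Rian among the genes named below. Whether this order takes part in their changes was not tested.

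**Figure D2:**
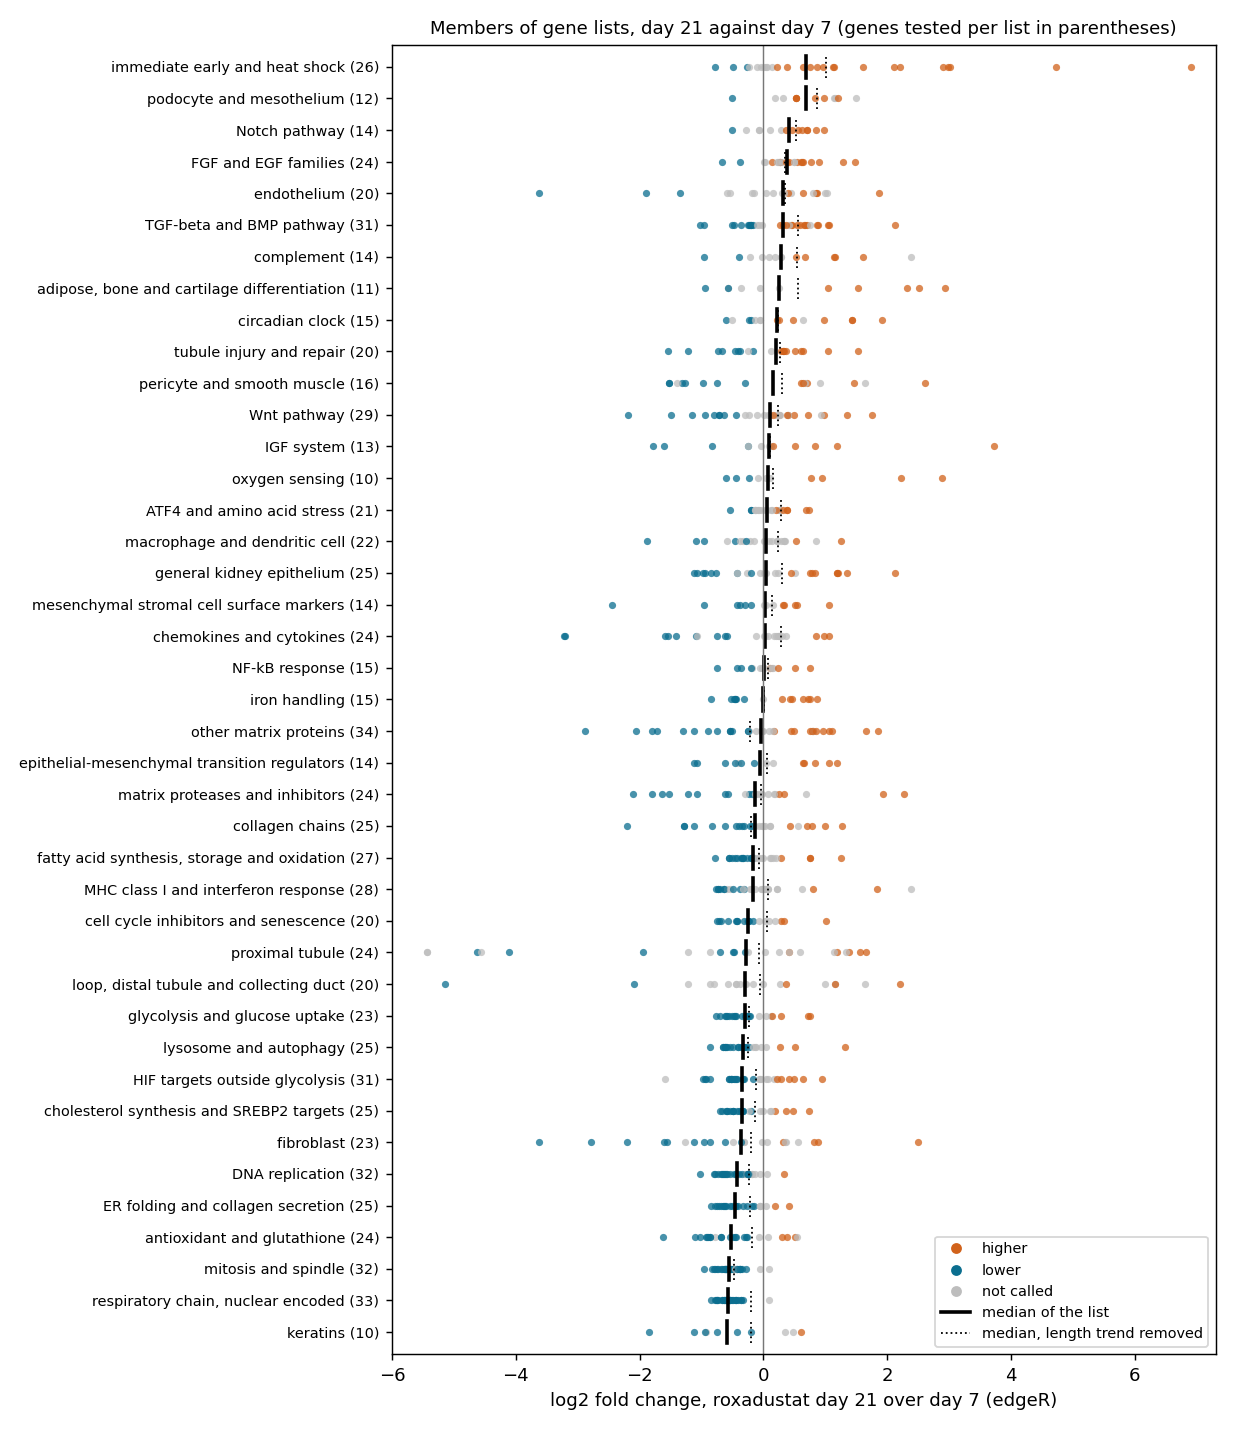
Each point is 1 gene of a list, placed by its log2 fold change of day 21 over day 7 on the x axis, with lists of at least 10 tested genes on the y axis ordered by their median (thick bar; dotted bar with the length trend removed). Immediate early genes reach 6.91, and the lists of the respiratory chain, mitosis and keratins lie lowest by median.

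The HIF target genes listed were more often lower than higher at day 21, while Epas1, a gene that sets the HIF response itself, was several-fold higher. Epas1, which encodes the HIF-2 alpha subunit, was at 2.11, 3.02, 2.56 and 3.62 CPM at day 7 and 26.5, 18.7, 18.5 and 20.3 CPM at day 21. The ranges are far apart, with a log2 fold change of 2.88 ± 0.24 (SE, adjusted p = 4.22e-08 by edgeR). The change of Epas1 was not called different between roxadustat and control cells. Hif1a, the HIF-1 alpha gene, went the other way, from 144, 153, 145 and 139 to 117, 131, 122 and 122 CPM, with a log2 fold change of -0.24 ± 0.05 (adjusted p = 0.000332) and no overlap. The 2 alpha subunit genes thus moved apart.

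Of 10 tested genes of oxygen sensing, 4 rose and 3 fell (length-corrected 5 and 2). The other 3 risers were Egln3, the prolyl hydroxylase PHD3 that is itself a HIF target, Arnt2, an ARNT relative, and Hif3a, at 0.301 to 1.5 CPM. Egln3 (chromosome 12, 54178981 to 54203860 on GRCm38) went from 32.4, 29.7, 31.9 and 31.8 to 60.01, 64.3, 59.7 and 58.4 CPM. Every day 21 library lay above every day 7 library, and the log2 fold change was 0.95 ± 0.08 (adjusted p = 2.78e-10). The other 2 that fell were Vhl, the E3 ligase subunit that binds hydroxylated HIF (-0.61 on the log2 scale), and Egln2, the hydroxylase PHD1 (-0.44). With the length trend removed Egln2 was at -0.15 and not called (adjusted p = 0.0583).

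Among 31 HIF targets outside glycolysis, 18 fell and 6 rose. Their median log2 fold change was -0.34, against -0.12 over protein-coding genes and -0.03 over all genes. With the length trend removed the counts were 14 and 10 and the median -0.12. The steepest falls included Ndufa4l2, a mitochondrial protein that lowers respiration in hypoxia (91.4, 92.8, 97.4 and 87.2 CPM at day 7, 49.3, 43.1, 49.6 and 46.3 at day 21), and P4ha2, a collagen prolyl hydroxylase subunit (391, 363, 381 and 357 and 194, 192, 191 and 197 CPM). Both groups were tight and separate, with log2 fold changes of -0.97 ± 0.06 and -0.95 ± 0.06 (adjusted p = 1.16e-12 and 7.56e-13). The mitochondrial gene Fam162a fell from 297 to 156 CPM and the lactate exporter gene Slc16a3 (MCT4) from 483 to 335 CPM. Car9, a carbonic anhydrase used as a hypoxia marker, fell from 11.1 to 8.1 CPM, a call lost with the length trend removed (-0.11, adjusted p = 0.405).

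Egln3 was among the 6 that rose. Car12, another carbonic anhydrase, rose from 24.6 to 32.8 CPM and the repressor gene Bhlhe40 from 244 to 345 CPM. Vegfa, the angiogenic factor, was at 339, 315, 351 and 332 CPM at day 7 and 362, 334, 352 and 361 CPM at day 21. These ranges overlap, and it was not called (log2 fold change 0.08 ± 0.05, adjusted p = 0.17), though it was called higher under 8 of the alternatives, at 0.13 to 0.24. Control cells had means of 62.7 and 67.3 CPM of Vegfa and 3.77 and 2.19 CPM of Slc16a3 at the same days.

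Genes of glycolysis were also mostly lower. Of 23 genes of glycolysis and glucose uptake 16 fell, 4 rose and 3 were not called, with a median of -0.30 (11 lower and 6 higher with the length trend removed). Their summed level went from 10879 to 11601 CPM per library at day 7 to 7576 to 8074 CPM at day 21. Ldha, which makes lactate from pyruvate, was at 1919.5, 1811, 1803 and 1744 CPM at day 7 and 975, 1196, 1029 and 1067 CPM at day 21. All day 21 libraries were lower (-0.77 ± 0.06, adjusted p = 1.77e-10). Aldoa, an aldolase, fell from 1957 ± 27.9 to 1204 ± 62.4 CPM, whereas its paralog Aldoc rose from 33.4 ± 0.671 to 55 ± 4.18 CPM (SD, n = 4 each). The other 3 risers were Gapdh (38.4 to 64.3 CPM), Pfkfb3, which makes an activator of phosphofructokinase (87.2 to 106 CPM), and the glucose transporter gene Slc2a1 (235 to 259 CPM). Gapdh has many processed copies in the genome, so its level is uncertain where reads fit several of them. The call of Slc2a1 (adjusted p = 0.0243) ended without day 7 replicate 1 (0.0599) or 2 (0.061) and without day 21 replicate 1 (0.0584) or 4 (0.0551).

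Immediate early genes had some of the steepest rises. These are genes that cells switch on within minutes of growth factor, stress or calcium signals, and their products are mostly transcription factors. Upstream sequences of a few are shown because of the size of their rises. The 250 bases before the RefSeq start on GRCm38.p6 are printed 5′ to 3′ on the gene's strand for the 3 that rose most among those matched, and for Zfp36 and Dusp1, which were chosen after their values and sequences were seen. Capitals mark the motif TGACG on either strand (CGTCA on the other), the core bound by CREB and ATF proteins, its palindrome TGACGTCA, and the CArG box, the element bound by serum response factor.
Fosb (chr7:19310046-19310295, minus strand): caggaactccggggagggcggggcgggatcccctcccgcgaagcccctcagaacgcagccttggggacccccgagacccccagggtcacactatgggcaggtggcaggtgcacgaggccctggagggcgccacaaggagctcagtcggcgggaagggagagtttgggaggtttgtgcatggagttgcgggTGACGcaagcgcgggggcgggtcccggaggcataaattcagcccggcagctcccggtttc
Fos (chr12:85473640-85473889, plus strand): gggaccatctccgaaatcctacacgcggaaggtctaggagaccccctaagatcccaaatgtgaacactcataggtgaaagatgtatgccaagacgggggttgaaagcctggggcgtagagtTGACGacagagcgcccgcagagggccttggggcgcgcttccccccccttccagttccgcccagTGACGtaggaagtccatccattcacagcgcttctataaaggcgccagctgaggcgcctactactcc
Nr4a1 (chr15:101266596-101266845, plus strand): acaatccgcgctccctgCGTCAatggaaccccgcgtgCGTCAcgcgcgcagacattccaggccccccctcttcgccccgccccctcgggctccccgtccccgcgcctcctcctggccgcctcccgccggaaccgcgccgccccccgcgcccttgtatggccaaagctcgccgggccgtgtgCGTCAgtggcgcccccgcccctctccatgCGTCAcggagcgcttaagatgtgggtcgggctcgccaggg
Dusp1 (chr17:26508473-26508722, minus strand): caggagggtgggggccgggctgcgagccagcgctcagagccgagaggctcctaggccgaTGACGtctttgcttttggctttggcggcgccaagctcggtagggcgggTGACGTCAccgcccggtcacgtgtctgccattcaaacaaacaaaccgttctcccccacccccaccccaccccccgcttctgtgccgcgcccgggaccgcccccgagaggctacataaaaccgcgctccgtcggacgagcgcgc
Zfp36 (chr7:28379229-28379478, minus strand): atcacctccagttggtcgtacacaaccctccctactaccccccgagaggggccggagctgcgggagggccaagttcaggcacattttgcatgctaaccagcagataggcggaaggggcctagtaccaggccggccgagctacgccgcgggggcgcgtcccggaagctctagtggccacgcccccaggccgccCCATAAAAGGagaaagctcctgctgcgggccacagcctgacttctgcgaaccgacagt
Of 26 immediate early and heat shock genes listed, 19 were matched to a RefSeq promoter. Of the 12 matched genes that rose, 7 held TGACG, 1 (Dusp1) held TGACGTCA and 2 (Zfp36 and Egr2) held a CArG box in this window. These are counts of genes, in which a gene with several promoters, such as Egr2, is counted where any of them matches. Counted in that way over all 27025 genes of the table, the shares were 19.8%, 1.77% and 1.62%, and over its 32851 single promoters they were 17.8%, 1.55% and 1.47%. Of the 6 matched genes that were not called, 3 held TGACG. A match describes letters in this window and is not a binding site shown by these data.

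Fosb, an AP-1 subunit (chromosome 7, 19302696 to 19310051), was at 0.624, 1.32, 0.654 and 0.724 CPM at day 7 and 108, 99, 96.7 and 102 CPM at day 21. Every day 21 library was far above every day 7 library, by 6.91 ± 0.12 on the log2 scale (adjusted p = 2.02e-25). Fos, its paralog, rose from 5.81, 7.03, 5.62 and 5.83 to 160.2, 154, 167 and 163 CPM. The 4 day 21 libraries lay within a narrow range, far above day 7 (4.72 ± 0.07, adjusted p = 7.54e-27). Egr1, a zinc finger factor induced by serum and stretch, rose from 15.9, 19.7, 17.7 and 24.4 to 184, 138, 148 and 156 CPM, and the nuclear receptor gene Nr4a1 from 0.913, 0.897, 0.818 and 1.09 to 6.67, 6.72, 7.46 and 7.28 CPM. Their log2 fold changes were 3.01 ± 0.17 and 2.90 ± 0.14 (adjusted p = 9.89e-10 and 9.26e-15), and no library of the 2 days overlapped in either gene.

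Of 26 tested members 16 rose and 3 fell, with a median log2 fold change of 0.69 (length-corrected 20 and 3, median 1.01). Among all genes 28.6% rose and 32.9% fell, and among protein-coding genes 23.5% and 39.4%. Ier2, an early response gene, rose from 18.1 to 78 CPM, Junb, an AP-1 partner of the Fos proteins, from 97.9 to 215 CPM, Zfp36, which marks short-lived mRNAs for decay, from 7.48 to 23 CPM, and the MAP kinase phosphatase gene Dusp1 from 67.9 to 133 CPM. The 3 that fell were all heat shock genes: Hsp90aa1 (188 to 109 CPM), Hspa8 (318 to 225 CPM) and Dnaja1 (62.5 to 51.8 CPM). Of the other 4 heat shock genes of the list Hspa1a rose (1.11 to 1.88 CPM) and 3 were not called. The call of Hspa1a ended without day 7 replicates 1 and 2 (adjusted p = 0.0532). In control cells 11 of the 26 rose and 10 fell, with a median of 0.09. The difference between arms was called higher with roxadustat in 15 and lower in 4. Fosb rose by 6.91 and Fos by 4.80 on the log2 scale in control cells. Feeding, density and the time from harvest to lysis are not given in the sources used here.

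**Figure D3:**
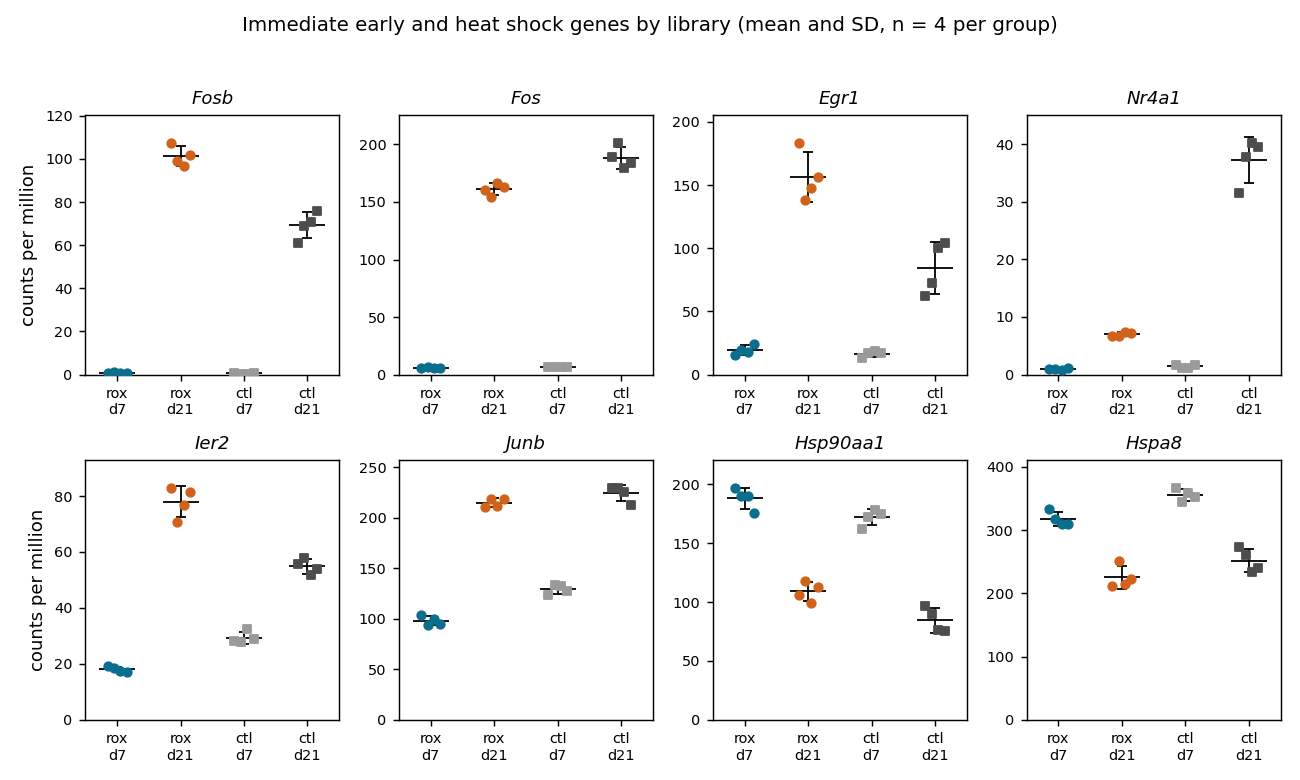
CPM (y axis, linear, from 0) of 6 immediate early genes and 2 chaperone genes in each library, grouped on the x axis by arm and day (rox, roxadustat; ctl, control), with mean and SD. Fosb and Fos were below 8 CPM in all day 7 roxadustat libraries and above 90 CPM in all day 21 ones, while Hsp90aa1 and Hspa8 were lower at day 21.

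Further genes had steep rises. Crisp1, a secreted protein best known from the epididymis (chromosome 17, 40293758 to 40319207), was at 1.39, 0.944, 0.818 and 0.633 CPM at day 7 and 36.9, 42.4, 46.6 and 39.8 CPM at day 21. The groups are far apart, with a log2 fold change of 5.44 ± 0.16 (adjusted p = 9.26e-19). Igfbp5, an insulin-like growth factor binding protein, rose from 19.4, 21.9, 23.7 and 27.2 to 352, 253, 313 and 304 CPM (3.73 ± 0.15, adjusted p = 3.67e-12). Trpm3, a cation channel, was almost the same in all 4 day 21 libraries, at 49.3, 49.6, 49.8 and 49.3 CPM, against 4.03, 4.96, 3.93 and 4.57 CPM at day 7 (3.50 ± 0.09, adjusted p = 2.77e-21).

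Cyp24a1, the enzyme that breaks down active vitamin D and a gene of the proximal tubule, rose from 10.5, 10.7, 11.4 and 11.8 to 92.8, 76.6, 94.1 and 96.8 CPM (3.02 ± 0.27 on the log2 scale, adjusted p = 1.64e-07). Shank2, a scaffold protein, rose from 2.51 to 25.8 CPM, Col10a1, a collagen of growth plate cartilage, from 2.1 to 16.1 CPM, and the atypical cadherin gene Fat3 from 0.981 to 7.58 CPM. In each of these, too, the lowest day 21 library lay above the highest day 7 library. Slc6a18, an amino acid transporter of the proximal tubule, rose from 146, 138, 143 and 135 to 279.7, 329, 274 and 291 CPM (1.06 ± 0.06, adjusted p = 2.17e-13), and Spns2, an exporter of sphingosine-1-phosphate, from 499.9 to 665 CPM.

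In absolute level, the matrix glycoprotein genes Fn1 and Thbs1 and the osteopontin gene Spp1 gained most beside noncoding RNAs. Spp1, at 18066, 17185, 16632 and 15881 CPM at day 7 and 19079, 22602, 19387 and 21262 CPM at day 21, did not overlap between the days and had a log2 fold change of 0.28 ± 0.08 (adjusted p = 0.00211). The nuclear RNA Malat1 went from 13302 to 15394 CPM with overlapping libraries. Its call (adjusted p = 0.0156) ended without day 7 replicate 3 (0.0563) or day 21 replicate 1 (0.0704). Gm26917 and Gm23935, predicted RNA loci, rose from 10399 to 18098 and from 715 to 2244 CPM, and without day 7 replicates 1 and 2 neither was called (0.0764 and 0.0657). The largest falls in level were in the small nuclear RNA Rn7sk (12043 to 6689 CPM), Col3a1, the RNase P RNA Rpph1 (8388 to 5659.8 CPM), the cytoskeletal actin gene Actb (4316 to 2604 CPM), Fbln2 and Sparc. For Rn7sk the call ended with the length trend removed (-0.08, adjusted p = 0.268), and Rpph1 reversed (0.21, adjusted p = 0.0168).

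Fibroblast and matrix genes were among the steepest falls. Col3a1, a fibrillar collagen of interstitial matrix (chromosome 1, 45311538 to 45349706), was at 4045, 3838, 4385 and 3684 CPM at day 7 and 886, 719, 929 and 944 CPM at day 21. Every day 21 library was below every day 7 library, with a log2 fold change of -2.20 ± 0.15 (adjusted p = 1.48e-09). Ccn3, a matricellular protein, fell from 90.8, 83.1, 84.1 and 77.8 to 11.1, 12.2, 9.84 and 11.9 CPM (-2.88 ± 0.10, adjusted p = 3.13e-17), and Mfap5, which binds elastic microfibrils, from 133, 128, 133 and 125 to 18.2, 19.3, 17.4 and 20.5 CPM (-2.78 ± 0.14, adjusted p = 2.9e-11). Neither gene had overlapping groups. Cygb, a globin of stellate cells and fibroblasts, fell from 15.1 to 3.15 CPM, Cd248 (endosialin of stromal cells) from 43.2 to 8.64 CPM and the integrin-like gene Itgbl1 from 19 to 4.16 CPM.

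Of 23 fibroblast markers 10 fell and 4 rose, and both counts were the same with the length trend removed. Among protein-coding genes 39.4% fell and 23.5% rose, and among all genes 32.9% and 28.6%. The counts lie near the protein-coding shares and by themselves are no result about this list. The summed level of the fibroblast markers was 10498 to 11911 CPM at day 7 and 4965 to 6198 CPM at day 21. Twist1, a mesenchymal transcription factor, fell from 12.3 to 5.64 CPM and the surface gene Thy1 from 17.5 to 9.03 CPM. The 4 risers were Lum, a collagen-binding proteoglycan (1.06 to 5.96 CPM), Cd34 (37 to 68.1 CPM), the stromal transcription factor gene Foxd1 (1.67 to 2.95 CPM) and Nt5e. Nt5e, an enzyme that makes adenosine and is listed here with the fibroblast markers, went from 356, 334, 327 and 308 to 389, 431, 419 and 408 CPM (0.31 ± 0.06, adjusted p = 9.52e-05), with no overlap. In control cells Nt5e, Cd34 and Foxd1 fell, while 17 of the 23 listed genes rose. The fibroblast markers therefore did not all move one way.

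Among 25 collagen chains 17 were called, 12 of them lower (length-corrected 14 lower and 5 higher). Col6a1, a chain of beaded filaments, fell from 77.5, 71, 78 and 72.8 to 30.2, 28.1, 31.7 and 33.5 CPM (-1.28 ± 0.13, adjusted p = 3.06e-07). The risers included Col4a3 and Col4a4, which form the network of mature kidney basement membranes. Col4a3 was at 374, 389.7, 395 and 421 and 691, 610.4, 631 and 644 CPM and Col4a4 at 319.7, 297, 313 and 314 and 570.2, 560.3, 499 and 499 CPM. These partners rose by 0.71 ± 0.07 and 0.78 ± 0.07 on the log2 scale (adjusted p = 8.64e-09 and 2.01e-09) with separate groups. Col14a1, a collagen on fibril surfaces, rose from 3.79 to 9.05 CPM. Col1a1, the main chain of type I collagen, scattered widely, at 409.6, 550.4, 671 and 864 CPM at day 7 and 1214, 522, 953 and 968 CPM at day 21. The groups overlap and it was not called (adjusted p = 0.0951), but without day 7 replicate 4 (0.0343), without day 21 replicate 2 (0.0198) or by DESeq2 (0.0413) it was called higher.

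Other matrix proteins split evenly, with 12 of 34 higher and 13 lower (10 and 16 with the length trend removed). Fn1, fibronectin (chromosome 1, 71585520 to 71653200), was at 3721, 4600.2, 5077 and 6555 CPM at day 7 and 12200.3, 8449, 10496 and 10543 CPM at day 21. Despite wide scatter the groups do not overlap (1.06 ± 0.21, adjusted p = 0.00042). Thbs1, thrombospondin 1, which binds matrix and activates latent TGF-beta, rose from 4339, 4407, 5113 and 4864 to 9497, 8911, 8964 and 9271 CPM (0.97 ± 0.06, adjusted p = 6.86e-13), while its relative Thbs2 fell from 289.5, 271, 298 and 268 to 82.5, 74.7, 79.3 and 87.5 CPM (-1.80 ± 0.10, adjusted p = 2.17e-12). The 2 thrombospondins thus moved apart by more than any spread between libraries. The basement membrane genes Hspg2 (perlecan, 71.1, 108, 138 and 186 and 509, 282, 411 and 391 CPM) and Lama5 (laminin alpha 5, 155 to 332 CPM) rose, as did Ccn2, connective tissue growth factor (1766 to 3059 CPM). Sparc, which binds collagen, fell from 2817 to 1291 CPM and Fbln2, fibulin 2, from 3442 to 1885 CPM.

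Of 24 matrix proteases and inhibitors 4 rose and 10 fell (length-corrected 5 and 10). These counts lie near the 23.5% and 39.4% of protein-coding genes (28.6% and 32.9% of all genes). The inhibitor gene Timp3 fell from 1309, 1251, 1399 and 1215 to 412, 431, 405 and 421 CPM (-1.63 ± 0.10, adjusted p = 9.85e-12), and Ctsk, cathepsin K, a collagen-degrading protease, from 64.3, 55.9, 57.9 and 52.7 to 16.1, 17, 14.7 and 17.7 CPM (-1.80 ± 0.09, adjusted p = 1.77e-13). Cemip, which breaks down hyaluronan, fell from 63.5 to 14.3 CPM and Cped1 from 21.5 to 13.7 CPM.

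Several contractile genes fell. Acta2, smooth muscle actin and the usual marker of myofibroblasts (chromosome 19, 34241090 to 34255590), was at 1631, 1604, 1638 and 1660.3 CPM at day 7 and 608, 691, 649 and 675 CPM at day 21, lower in all 4 libraries (-1.32 ± 0.14, adjusted p = 2.94e-07). Cnn1, calponin, fell from 218, 205, 214 and 203 to 63.5, 84.4, 69.7 and 71.9 CPM (-1.53 ± 0.07, adjusted p = 5.94e-15) and the enteric smooth muscle actin gene Actg2 from 46.1, 46.9, 48 and 50.8 to 14.6, 15.2, 17.9 and 18.8 CPM. Skeletal actin, Acta1, fell from 5.43 to 0.558 CPM. Tagln, transgelin, fell from 1024 to 518 CPM, but 67.9% of its exon bases are shared with a gene on the other strand, and these libraries do not keep strand. Other members of the same list rose. Of 16 pericyte and smooth muscle genes 5 rose and 7 fell (length-corrected 6 and 6). Cspg4 (NG2) rose from 10.3 to 28.2 CPM, Notch3, the Notch receptor of pericytes, from 27 to 44.1 CPM and Myocd, the coactivator that drives smooth muscle genes, from 0.24, 0.519, 0.273 and 0.543 to 2.65, 2.33, 2.29 and 2.56 CPM (2.61 ± 0.32, adjusted p = 1.39e-07).

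**Figure D4:**
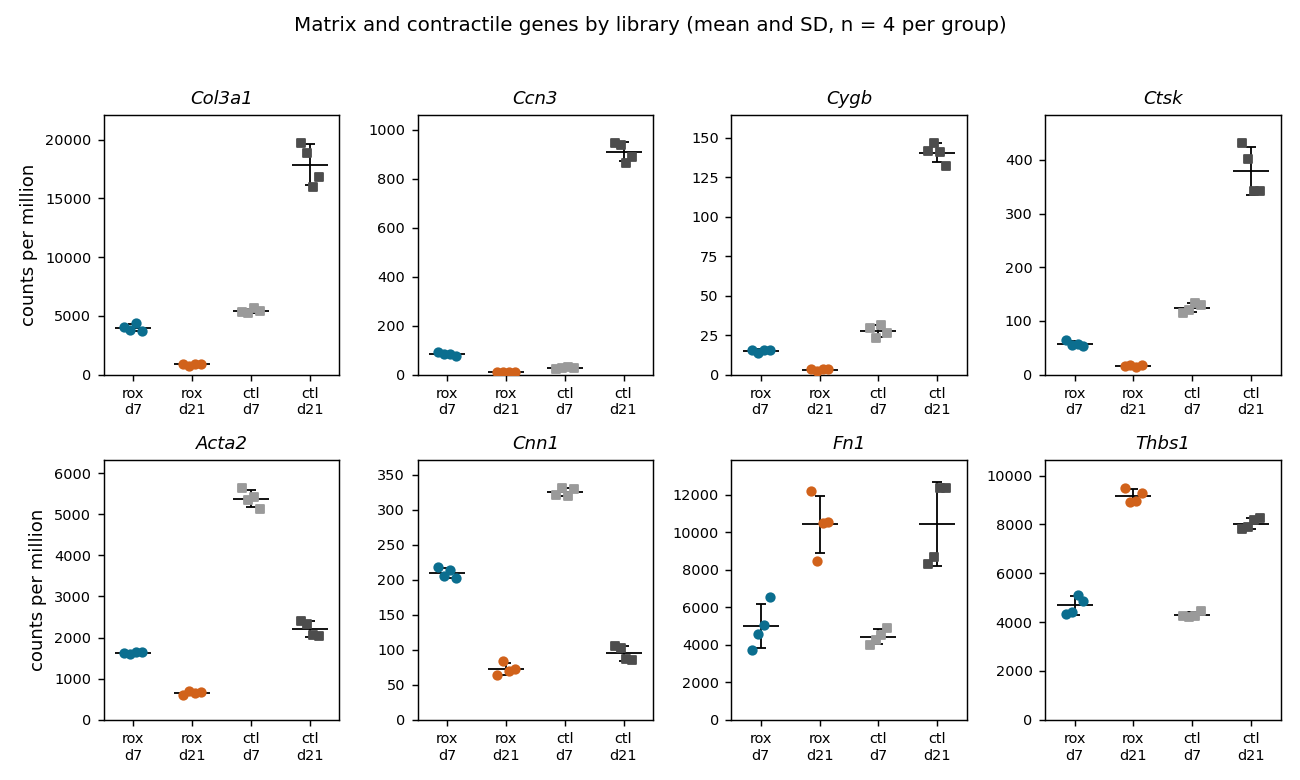
CPM (y axis, linear, from 0) of 8 matrix and contractile genes in each library by arm and day, with mean and SD (n = 4). In roxadustat cells Col3a1, Ccn3, Cygb, Ctsk, Acta2 and Cnn1 were lower and Fn1 and Thbs1 higher at day 21 with no overlap, and in control cells Col3a1, Ccn3, Cygb and Ctsk moved the other way.

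Kidney epithelial genes moved both ways. Of 25 general epithelial genes 9 rose and 8 fell, with a median of 0.04 (11 higher and 6 lower with the length trend removed). Pax2, Lhx1 and Pax8 were chosen after their values were seen. Pax2, a factor of nephron development that is switched on again in injured tubules (chromosome 19, 44756045 to 44837871), was at 3.12, 4.96, 5.62 and 6.74 CPM at day 7 and 28.5, 16, 22.6 and 22.8 CPM at day 21. Both groups scatter but do not overlap (2.13 ± 0.23, adjusted p = 4.2e-07). Ehf, an epithelial ETS factor, rose from 5.23, 5.52, 5.83 and 5.61 to 12.1, 13.2, 13.1 and 12.2 CPM (1.19 ± 0.11, adjusted p = 7.06e-10), and Pax8, a factor of kidney development, from 109.7, 114, 114 and 124 to 166, 143, 161 and 158 CPM (0.44 ± 0.06, adjusted p = 2.36e-07). The low Grhl2 (1.18 to 2.69 CPM), Lhx1 (0.758 to 1.77 CPM) and the epithelial splicing regulator gene Esrp1 (1.84 to 3.4 CPM) rose as well.

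On the other side, Cdh16 fell from 213, 212, 209 and 195 to 114, 117, 118 and 111 CPM. The groups are far apart (-0.85 ± 0.05, adjusted p = 1.08e-12). Krt19, a simple epithelial keratin, fell from 22, 19.7, 17.9 and 19.2 to 9.87, 9.66, 8.05 and 8.41 CPM (-1.13 ± 0.12, adjusted p = 1.23e-08), and Cldn4, a tight junction claudin, from 25.7, 25, 27.4 and 24.2 to 11.4, 13.4, 14.2 and 13 CPM (-0.98 ± 0.07, adjusted p = 2.47e-11). Krt7 fell from 15.4 to 7.93 CPM, the E-cadherin gene Cdh1 from 4.39 to 2.06 CPM and the adhesion gene Epcam from 4.88 to 2.83 CPM. In each of these 6 genes the groups did not overlap. In control cells at day 21 Cdh16 was at 2.82 and Cldn4 at 0.147 CPM.

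**Figure D5:**
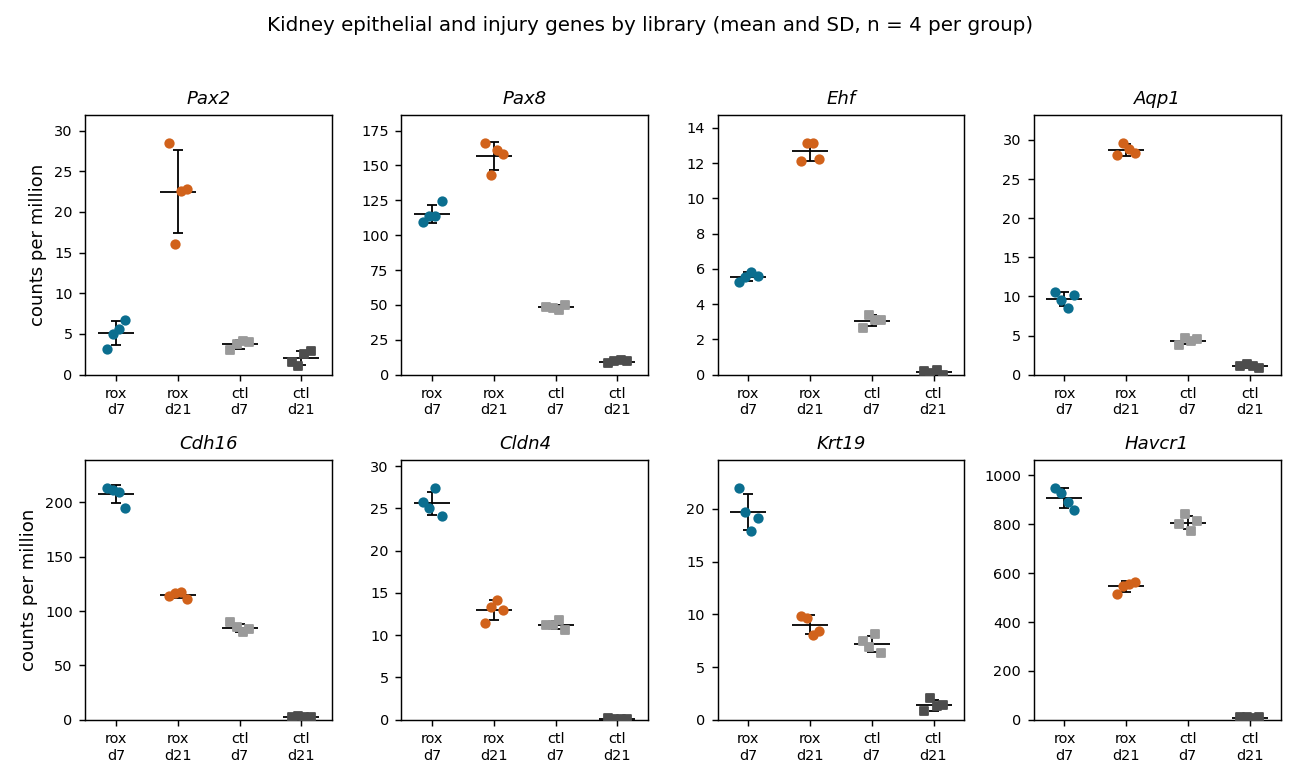
CPM (y axis, linear, from 0) of 8 kidney epithelial and injury genes in each library by arm and day, with mean and SD (n = 4). In roxadustat cells Pax2, Pax8, Ehf and Aqp1 were higher and Cdh16, Cldn4, Krt19 and Havcr1 lower at day 21, and in control cells at day 21 all 8 were at lower levels than in either roxadustat group.

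Proximal tubule genes, whose products reabsorb solutes and protein from the filtrate, were mixed too: 5 of the 24 rose and 7 fell (length-corrected 7 and 4). Aqp1, the water channel of proximal tubule and thin limb (chromosome 6, 55336432 to 55348555), rose from 10.6, 9.49, 8.51 and 10.2 to 28, 29.6, 28.8 and 28.3 CPM (1.56 ± 0.07, adjusted p = 3.66e-15). Cubn, the cubilin receptor for filtered protein, rose from 11.9, 14.2, 10.6 and 15.1 to 30.8, 29.1, 29.5 and 29.3 CPM (1.19 ± 0.11, adjusted p = 9.7e-09) and the brush border enzyme gene Ggt1 from 45.1 to 59.7 CPM. Lrp2, megalin, the partner of cubilin, was at 163, 169, 176 and 173 and 171, 178, 176 and 169.5 CPM with overlapping groups and was not called (0.03 ± 0.07, adjusted p = 0.732). With the length trend removed this long gene was called lower (-0.30, adjusted p = 0.000193). Hnf4a, the factor of proximal tubule identity, fell from 12.5 to 7.7 CPM, and Trpm6, a magnesium channel of the distal tubule, rose from 34.7 to 44.9 CPM.

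Several transcripts of mature tubule at low level depended on 2 libraries. Umod, made in the loop of Henle, was at 0.913, 4.44, 0.0545 and 0 CPM at day 7, so nearly all of it lay in replicates 1 and 2, and it had 2 counts in all at day 21. Slc34a1, a phosphate transporter chosen after its values were seen, was at 1.2, 2.45, 0.0545 and 0 CPM at day 7 and had 3 counts at day 21. Without day 7 replicates 1 and 2 neither was called (adjusted p = 0.904 and 0.643, against 0.0235 and 0.0192 with all libraries). The call of Umod also ended without day 7 replicate 2 alone (0.0771) and without day 21 replicate 1, 2 or 4 (0.0527, 0.0591 and 0.0634), and that of Slc34a1 without day 7 replicate 2 (0.0626) and without day 21 replicate 2 or 4 (0.0522 and 0.0577). Kap, an androgen-regulated protein of the proximal tubule that was likewise chosen after its values were seen, was at 4.56, 20.6, 0.273 and 0.497 CPM at day 7 and 13.5, 15.6, 15 and 13.8 CPM at day 21. It was not called with all libraries (adjusted p = 0.152) and called higher without day 7 replicate 2 (8.03e-05).

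Tubule injury and repair genes showed the same mixture. Of 20 genes 10 rose and 8 fell (11 and 3 with the length trend removed). Sox9, a factor of regenerating tubule cells, rose from 7.88, 9.72, 9.43 and 12.8 to 34.2, 25.1, 29.5 and 27.2 CPM (1.53 ± 0.13, adjusted p = 3.93e-10). Havcr1, the phagocytic receptor KIM-1 (chromosome 11, 46735080 to 46779578), fell from 949, 928, 890.3 and 858 to 514, 549, 557 and 563 CPM with no overlap (-0.73 ± 0.18, adjusted p = 0.00262), a call lost with the length trend removed (-0.40, adjusted p = 0.0613). Krt20, a keratin of injured tubules, rose from 8.44 to 12.8 CPM and Itgb6, an epithelial integrin that activates TGF-beta, from 7.22 to 11.1 CPM. These 2 and Sox9 rose while Havcr1 fell, so injury markers did not share a direction.

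Cell cycle genes were mostly lower at day 21. Of 32 genes of mitosis and spindle 29 fell and 3 were not called, with a median of -0.55 (24 lower with the length trend removed, median -0.47). The share lower was 32.9% among all genes and 39.4% among protein-coding genes. Of 32 DNA replication genes 21 fell (length-corrected 15, with 1 higher) and 1, the thymidine kinase gene Tk1, rose, a call lost without day 21 replicate 1 (adjusted p = 0.151), without replicate 4 (0.0533), and without day 7 replicate 1 (0.0906) or 2 (0.0707). Ndc80, a kinetochore protein, fell from 5.67, 4.91, 5.07 and 4.52 to 2.45, 2.78, 2.78 and 2.41 CPM (-0.96 ± 0.14, adjusted p = 1.41e-06). Mcm6, a subunit of the replicative helicase, fell from 22.5, 21.9, 20.5 and 21.7 to 13.5, 13.7, 11.6 and 11.4 CPM (-0.78 ± 0.07, adjusted p = 1.3e-09), and Anln, a ring protein of cytokinesis, from 108 to 79.1 CPM. Rrm1, a ribonucleotide reductase subunit, fell from 182 to 89.7 CPM. The proliferation marker Mki67 was at 21, 22.6, 22.5 and 21.7 CPM at day 7 and 25.1, 22, 23.7 and 22.7 CPM at day 21. Its groups overlap (adjusted p = 0.727).

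Of 20 genes of cycle inhibition and senescence 12 fell and 3 rose (6 and 6 with the length trend removed). Cdkn2a, the p16 and p19ARF locus of senescence, fell from 193, 187, 178 and 176 to 105, 106, 109.6 and 117 CPM (-0.74 ± 0.06, adjusted p = 1.54e-10). Cdkn1b, p27, fell from 56.4 to 34.4 CPM. Cdkn1a, p21, was at 276, 251, 278 and 296 and 341, 285, 267 and 282 CPM with overlapping groups and was not called (adjusted p = 0.343), although it was called higher with the length trend removed (0.32, adjusted p = 0.00902). Btg2, an antiproliferative early response gene, rose from 145, 138, 147 and 131 to 266, 301, 284 and 281 CPM (1.01 ± 0.06, adjusted p = 2.79e-13).

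Growth factor genes were often higher. Of 24 genes of the FGF and EGF families 14 rose and 2 fell, with a median of 0.37 (length-corrected 15 higher, median 0.34). Of all genes 28.6% rose and 32.9% fell, and of protein-coding genes 23.5% and 39.4%. Fgf1, a secreted fibroblast growth factor, rose from 169, 159, 162 and 159 to 399, 375, 409 and 402 CPM (1.29 ± 0.06, adjusted p = 9.63e-16), and Ereg, epiregulin, a ligand of the EGF receptor, from 33.7, 32.9, 35.9 and 31.8 to 89.3, 92.5, 104 and 88.8 CPM (1.48 ± 0.06, adjusted p = 9.77e-17). Both more than doubled with groups far apart. Hbegf, another EGF receptor ligand, rose from 118 to 182 CPM and the receptor gene Erbb4 from 89.9 to 131 CPM. The 2 that fell, Fgf18 (4.25 to 2.71 CPM) and Btc, betacellulin (4.61 to 3.56 CPM), were low, and neither was called with the length trend removed (adjusted p = 0.425 and 0.147). Btc also lost its call without day 7 replicate 2 (0.0633) and without day 21 replicate 4 (0.0714).

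In the Notch pathway, which signals between touching cells, 8 of 14 genes rose and 1 fell (length-corrected 9 higher). The ligand gene Jag1 rose from 563, 563, 628 and 599.7 to 884, 893, 836 and 852 CPM (0.56 ± 0.05, adjusted p = 8.9e-10), and the receptor gene Notch1 from 17.7 to 32.1 CPM. The 1 that fell was Hey1, a target repressor (3.83 to 2.72 CPM), a call lost with the length trend removed (adjusted p = 0.137). Ligand and receptors thus rose while this target did not.

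Of 31 genes of TGF-beta and BMP signalling 15 rose and 11 fell (length-corrected 16 and 9). Bmp2, a ligand of bone and kidney development, rose from 1.1, 0.991, 1.53 and 1.27 to 6.06, 5, 6.66 and 4.03 CPM (2.13 ± 0.19, adjusted p = 7.05e-10), and Fst, follistatin, which traps activins, from 199, 201, 199 and 191 to 401, 419.9, 400.4 and 408 CPM (1.04 ± 0.06, adjusted p = 3.23e-13). The activin subunit gene Inhbb, whose product follistatin binds, fell from 21.6, 22, 23 and 20.3 to 9.53, 10.05, 11.7 and 11.6 CPM (-1.02 ± 0.07, adjusted p = 1.85e-12), and Fstl1, a follistatin-like secreted protein, from 1008 to 516 CPM. The trap and the ligand subunit therefore moved in opposite directions.

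In the IGF system 5 of 13 genes rose and 4 fell (length-corrected 6 and 4). The binding proteins diverged: against the rise of Igfbp5, Igfbp3 fell from 308, 299.8, 325 and 292 to 84.2, 95.1, 87.7 and 89.6 CPM (-1.78 ± 0.07, adjusted p = 1.52e-16) and Igfbp6 from 40.3 to 13.2 CPM. Igf1r, the receptor that these proteins keep ligand from, rose from 206, 241, 246 and 279 to 622, 508, 546 and 544 CPM (1.19 ± 0.12, adjusted p = 3.37e-07). Of 29 Wnt pathway genes 9 rose and 9 fell (length-corrected 12 and 9), shares near the 28.6% and 32.9% of all genes. Among protein-coding genes these shares were 23.5% and 39.4%. The ligand genes Wnt7b (58.6 to 33.8 CPM) and Wnt9a (27.5 to 14.2 CPM) fell, and the receptor gene Fzd4 rose from 36 to 71 CPM.

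Il33 fell most among the named genes with at least 5 CPM. It encodes an alarmin, a nuclear cytokine that damaged epithelial and stromal cells release (chromosome 19, 29925114 to 29960718), and was at 488, 450.0, 462 and 408 CPM at day 7 and 44.3, 47.6, 51.6 and 50.2 CPM at day 21. The groups do not come near each other, with a log2 fold change of -3.22 ± 0.11 (adjusted p = 5.94e-15). Of 24 chemokine and cytokine genes 9 fell and 3 rose, with a median of 0.02 (length-corrected 6 and 5, median 0.29). Among protein-coding genes 39.4% fell and 23.5% rose, and among all genes 32.9% and 28.6%. The share of falls is near these values and is no result about this list. Il11, a cytokine of fibrotic stroma, fell from 9.17, 9.3, 10.4 and 9.23 to 3.06, 3.72, 2.98 and 2.8 CPM (-1.59 ± 0.14, adjusted p = 5.64e-10). The 3 risers were Cxcl12, a homing chemokine of stroma (3.98 to 8.32 CPM), Cx3cl1, fractalkine (9.35 to 18.5 CPM), and Lif, a cytokine of the IL-6 family (21.3 to 38.3 CPM).

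Of 28 genes of class I antigen presentation and the interferon response 9 fell and 2 rose, with a median of -0.17 (length-corrected 7 and 5, median 0.07). The share of falls does not exceed the 39.4% of protein-coding genes and is near the 32.9% of all genes. Rises made up 23.5% and 28.6% there. B2m, the light chain of class I molecules, fell from 173, 171, 166 and 155 to 90.8, 94.5, 111 and 103 CPM (-0.74 ± 0.07, adjusted p = 2.15e-09) and the tetherin gene Bst2 from 12.5 to 7.46 CPM. H2-Ab1, a class II chain, was at 31, 26.1, 28.7 and 26.1 CPM at day 7 and 21.6, 20.04, 23 and 22.4 CPM at day 21. It was not called (-0.37 ± 0.16, adjusted p = 0.0625), although its groups do not overlap and it was called lower with no filter on low counts (1.48e-05), in a fit of the 8 roxadustat libraries alone (0.000855), with the replicate block (0.00206) and by limma voom (0.0476). In the complement list 5 of 14 genes rose and 2 fell (length-corrected 7 and 1). Among them Serping1, the C1 inhibitor, rose from 18, 16.6, 18 and 17.5 to 41.2, 35.7, 39 and 39.5 CPM (1.15 ± 0.10, adjusted p = 3.27e-10).

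Many genes of energy and redox metabolism were lower. Of 33 nuclear-encoded respiratory chain genes 32 fell and 1 was not called, with a median of -0.58. With the length trend removed 21 fell, 1 rose and the median was -0.20. Cox5a, a subunit of cytochrome c oxidase, fell from 37.6, 35.9, 37.5 and 37 to 19.5, 20.6, 21.4 and 21.2 CPM (-0.84 ± 0.08, adjusted p = 7.79e-10), and Atp5b, the catalytic subunit of ATP synthase, from 1014 to 637 CPM. The cytosolic ribosomal protein genes took 0.862% ± 0.0348 of counts at day 7 and 0.525% ± 0.0382 at day 21 (SD, n = 4 each; exact permutation test, two-sided, p = 0.0286, the smallest that 4 against 4 allows, and 0.0858 adjusted over 3 classes). In control cells they took 1.19% to 1.26% per library at day 7 and 0.674% to 0.825% at day 21. These shares were not corrected for the length trend, and reads lost to pseudogenes were not assessed. The share of mitochondrially encoded genes lacks several mRNAs, since mt-Co2, mt-Co3, mt-Atp6, mt-Atp8 and mt-Nd4l had 0 counts in all 8 libraries and mt-Nd3 had 1. This share, at 0.872% ± 0.0718 and 1.01% ± 0.306 (SD, n = 4 each), did not pass the test (exact p = 0.486), and without day 21 replicate 2 it was higher (difference 0.285 percentage points, exact p = 0.0286). Gene by gene, 4 of the 7 tested members of the mitochondrially encoded list were higher and 1 lower, with a median of 0.61 (length-corrected 6 and 0, median 1.14). The 100 most abundant genes took 24.2% and 24.8% (exact p = 0.286).

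Antioxidant and glutathione genes fell in 17 of 24 cases (length-corrected 12 lower and 4 higher), with a median of -0.52. Prdx1, a peroxidase, fell from 554, 529, 490.2 and 495 to 263, 312, 289.6 and 274 CPM (-0.86 ± 0.06, adjusted p = 1.28e-11), and Tkt, transketolase of the pentose phosphate path, from 1042, 1009, 1039 and 975 to 519.9, 534, 545 and 555 CPM (-0.92 ± 0.05, adjusted p = 1.04e-13). The 3 that rose were Gclm (345 to 491 CPM) and Gclc (351 to 456 CPM), the 2 subunits of the enzyme that limits glutathione synthesis, and the transferase gene Gsta3 (84.6 to 104 CPM). Both subunits of that 1 enzyme therefore rose against the direction of their list.

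Of 25 genes of cholesterol synthesis 16 fell and 4 rose, and with the length trend removed the counts were 8 and 4. The risers included Srebf2, the factor that drives this pathway (59.4 to 98.8 CPM), and the reductase gene Dhcr7 (7.41 to 9.49 CPM).

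Genes of protein folding in the endoplasmic reticulum and of collagen secretion were called in 21 of 25 cases, 19 of them lower, with a median of -0.46 (length-corrected 12 lower and 4 higher, median -0.22). Serpinh1, the collagen chaperone HSP47, fell from 1358, 1275, 1342 and 1181 to 675, 781, 703 and 722 CPM (-0.84 ± 0.08, adjusted p = 1.91e-09), and P4hb, protein disulfide isomerase, from 1600.5 to 996 CPM. In the lysosome and autophagy list 17 of 25 fell and 3 rose (length-corrected 16 and 2). Npc2, which carries cholesterol out of lysosomes, fell from 471, 447, 445 and 405 to 221, 257, 239 and 250.4 CPM (-0.87 ± 0.07, adjusted p = 4.21e-10) and the saposin gene Psap from 1543 to 1000.3 CPM. Ulk1, the kinase that starts autophagy, rose from 22.4, 27.4, 26.8 and 34.1 to 81, 60.8, 63.9 and 70.6 CPM (1.32 ± 0.15, adjusted p = 1.25e-06).

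Iron genes were called in 14 of 15 cases, with 7 in each direction (length-corrected 7 higher and 5 lower). Cp, ceruloplasmin, a ferroxidase and known HIF target, rose from 1203, 1185, 1096 and 1085 to 1986, 2226, 2080.1 and 2062 CPM (0.87 ± 0.06, adjusted p = 2.5e-11), and the ferritin light chain gene Ftl1 fell from 289.6 to 161 CPM, although 34.6% of its exon bases overlap another gene. In the circadian clock list 7 of 15 genes rose (length-corrected also 7) and 3 fell, falls that were not called length-corrected. Per1 rose from 7.83, 8.69, 10.7 and 11.2 to 33.1, 21.2, 25.4 and 24.5 CPM (1.44 ± 0.20, adjusted p = 1.29e-05) and the repressor gene Nr1d1 from 4.89 to 13.3 CPM, while the hour of harvest is not given in the sources used here.

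Lists of markers of other cell types were summed in each library. The 22 macrophage and dendritic cell genes summed to 45.5 to 49.8 CPM per library at day 7 and 38.7 to 42.1 CPM at day 21, with 2 higher and 5 lower (length-corrected 5 and 3). Csf1r, the macrophage growth factor receptor, rose from 4.37 to 6.3 CPM. The 7 tested genes of lymphocytes, NK cells and neutrophils summed to at most 1.25 CPM in any library, and their median log2 fold change was 0.30. Endothelial genes summed to 77.4 to 87.7 CPM at day 7 and 141 to 153 CPM at day 21, with 5 of 20 higher and 3 lower (length-corrected 4 and 3). Flt1, the VEGF receptor 1, rose from 17.9, 17.4, 23.3 and 21.2 to 73.6, 74.7, 70.6 and 71.1 CPM (1.87 ± 0.07, adjusted p = 2.7e-17), while the angiopoietin receptor gene Tek fell from 3.09 to 0.798 CPM. Most of the rise in the endothelial sum was thus Flt1 alone, and 12 of the 20 genes were not called. The 12 tested podocyte and mesothelium genes summed to 169 to 192 CPM at day 7 and 209.7 to 288 CPM at day 21, with 6 higher and 1 lower (length-corrected 7 and 1). The 11 tested genes of adipose, bone and cartilage differentiation went from 55.1 to 65.5 CPM at day 7 to 108 to 123 CPM at day 21, with 5 higher and 2 lower (length-corrected 6 and 2). Whether contaminating cells take part in any of these changes was not tested.

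Further genes among the largest falls were the protease inhibitor gene Serpinb1a (7.44, 6.28, 5.62 and 6.65 CPM at day 7, 0.612, 0.888, 0.895 and 0.934 at day 21), the imprinted noncoding RNA Rian (11.5 to 1.74 CPM), Lrrn4cl (31.3 to 5.36 CPM), and the adhesion receptor gene Adgrd1 (17 to 3.45 CPM). All had separate groups, with log2 fold changes of -2.95 ± 0.17, -2.77 ± 0.14, -2.54 ± 0.15 and -2.34 ± 0.22 (adjusted p = 2.83e-13, 9.07e-15, 1.73e-11 and 7.54e-08).

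The same days of culture were set side by side in control cells to ask which of these changes differ with the drug. In control cells 34.5% of genes were higher and 34.3% lower at day 21. The difference between the arms in their change was itself called in 44.7% of genes, with 20.9% higher and 23.8% lower in roxadustat cells. Of the 8970 genes called in both arms 6978 moved the same way and 1992 in opposite directions. The median size of a called change was 0.58 on the log2 scale in roxadustat and 0.84 in control cells. Of 25 general epithelial genes 21 fell in control cells, with a median of -3.26 against 0.04 in roxadustat cells, and the difference was called in 22, all of them higher with roxadustat. Of 23 fibroblast genes 17 rose in control cells (median 1.53 against -0.37), and the difference was called lower with roxadustat in 18. All 32 mitosis genes fell in control cells, with a median of -2.10, and the difference was called higher with roxadustat in all 32. With scaling to library size alone 72.2% of the called differences were higher with roxadustat, in place of 46.8%. The 2 arms differ in drug, and they also differ in their levels at day 7, which cannot be told apart in this contrast.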

How the data were processed

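RNA of cultured Sca-1+ mouse kidney cells was sequenced from non-stranded mRNA libraries. The authors deposited 1 file of raw counts per library, with 47729 Ensembl genes each. Per the submitters' processing notes, reads were demultiplexed with bcl2fastq, aligned with STAR 2.5.2a to mm10 and counted with featureCounts 1.5.0-p1. The annotation release and the treatment of reads that map to several places are not given in the sources used here. Reads of paralogs, pseudogenes and overlapping genes on either strand may therefore be shared or lost, which touches Gapdh, Hspa8, Hsp90aa1, Actb, Ldha, Ftl1, Tagln and Rpph1. Symbols, positions and exon lengths came from GENCODE M21 on GRCm38 (47224 genes matched).

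All 20 libraries were fitted as 6 groups with edgeR 4.0.16 in R 4.3.3 (TMM factors, filterByExpr with a minimum count of 10, quasi-likelihood F test, Benjamini-Hochberg over 18731 genes). "Called" means an adjusted p under 0.05. Every adjusted p in the report is from this fit unless another tool is named. Limma 3.58.1 and DESeq2 1.42.0 were alternatives. The length trend was removed with an offset from exon length. Shares of counts were compared by exact permutation over 70 regroupings. Scripts were tested on simulated data. A floor of 3 counts was 0.136 to 0.298 CPM per library, and floors cover counting error only. Named genes were the 12 steepest rises and falls with at least 5 CPM, up to 4 members per list with the smallest p and those called against the list's majority, the 6 largest level changes each way, a fixed set of markers, and the 6 plus 6 strongest differences between arms. Zfp36, Dusp1, Pax2, Lhx1, Pax8, Slc34a1, Kap, Hif3a and Hspa1a were added after their values were seen. Some genes that the rule names are not reported here. The 44 lists, their members and the rule were chosen with earlier results of these data known.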

Additional observations from a re-analysis of the deposited data

Results flagged for a closer look

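A library stood apart from the other 3 of its group, by a gap that took up most of the range of the 4, in 17 of 372 groups checked. Chance alone does this in about 1 of 20 groups. At day 7 replicate 3 was highest for the fibulin gene Fbln2 (3700 CPM), the Wnt ligand gene Wnt7b (65.4 CPM) and the cytokine gene Il11 (10.4 CPM). Replicate 2 was highest for Fos (7.03 CPM) and Fosb (1.32 CPM), replicate 1 for Fam162a (314 CPM) and replicate 4 for Nr1d1 (6.42 CPM). At day 21 replicate 1 was lowest for P4hb (958 CPM), Tagln (472 CPM), Cped1 (12.2 CPM) and Serpinb1a (0.612 CPM). Replicate 2 was highest for Rpph1 (6530 CPM), Fstl1 (574 CPM) and Umod (0.111 CPM) and lowest for Cx3cl1 (14.3 CPM). The value of Umod is 2 counts, under the floor of 3, with 0 in the other 3 libraries. The share of mitochondrially encoded genes was lowest in day 21 replicate 2 (0.553% of counts) and that of snoRNAs in day 21 replicate 3 (0.0268%).

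The change from day 7 to day 21 differed between roxadustat and control cells in 8382 of 18731 genes tested, by the interaction term of edgeR's quasi-likelihood fit. Among 177 genes named here it differed in 143. Some of these genes were named for a strong difference between arms, and others for a small p within their list. The count of 143 is therefore set in part by how the genes were chosen and is no result about them as a set. The values that follow are log2 fold changes in roxadustat cells minus those in control cells, set out by the calls in each arm. Genes such as Crisp1, Hnf4a, Cdh1, Epcam, Grhl2, Esrp1 and Itgb6 had at most 3 counts over the 4 control libraries of day 21, and Hif3a had 0 over those of day 7, so their values depend on the prior count of the fit.

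Of the genes that rose with roxadustat and fell in control cells, 45 differed. Opposite calls in the 2 arms all but fix this outcome, and all 1992 genes with such calls were also called in the difference. The widest gaps were Crisp1 at 9.5, Slc6a18 at 6.62, Cyp24a1 at 5.79, Ehf at 5.63, Itgb6 at 5.09, Shank2 at 5.09, Igfbp5 at 4.98 and Nt5e at 4.94. Next came Erbb4 at 4.88, Ggt1 at 4.68, Esrp1 at 4.61, Cp at 4.55, Lhx1 at 4.47, Trpm3 at 4.23, Grhl2 at 4.1 and Spns2 at 4.03. These were followed by Spp1 at 3.82, Hbegf at 3.77, Trpm6 at 3.69, Aqp1 at 3.53, Col4a3 at 3.41, Fgf1 at 3.38, Col4a4 at 3.33 and Pax2 at 3.05. Then came Cd34 at 2.98, Pax8 at 2.81, Bmp2 at 2.76, Jag1 at 2.5, Cubn at 2.28, Sox9 at 2.24, Krt20 at 2.12 and Ccn2 at 2.04. After these stood Gclc at 1.9, Foxd1 at 1.71, Aldoc at 1.66, Gclm at 1.6, Tk1 at 1.51, Lama5 at 1.48, Egln3 at 1.47 and Gsta3 at 1.4. The smallest here were Fst at 1.2, Gapdh at 1.17, Car12 at 1.09, Bhlhe40 at 0.81 and Slc2a1 at 0.65.

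Of those that fell with roxadustat and rose in control cells, 35 differed, with the matrix genes among the widest gaps. They were led by Ccn3 at -7.94, Serpinb1a at -6.54, Cemip at -5.76, Lrrn4cl at -5.65, Cped1 at -5.52, Igfbp3 at -5.49, Itgbl1 at -5.42 and Adgrd1 at -5.12. Next came Cygb at -4.63, Cd248 at -3.95, Igfbp6 at -3.94, Col3a1 at -3.92, Inhbb at -3.67, Col6a1 at -3.57, Thbs2 at -3.5 and Mfap5 at -3.48. These were followed by Ctsk at -3.41, Rian at -3.24, Fgf18 at -2.68, Thy1 at -2.6, Timp3 at -2.53, Sparc at -1.96, Fstl1 at -1.89 and Ndufa4l2 at -1.86. Then came Twist1 at -1.85, Car9 at -1.71, Bst2 at -1.69, Fbln2 at -1.42, Rrm1 at -1.42, Cdkn2a at -1.28, Npc2 at -1.19 and Cdkn1b at -1.18. The smallest here were P4ha2 at -1.18, B2m at -1.08 and Hif1a at -0.77.

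Among genes that rose in both arms 22 differed in size, led by Lum at -7.31, Hif3a at -5.38, Col14a1 at -4.6, Cxcl12 at -3.21, Fat3 at 2.58, Serping1 at -2.08, Notch3 at -1.83 and Nr4a1 at -1.82. Next came Hspg2 at -1.63, Malat1 at -1.32, Ier2 at 1.2, Ereg at 1.18, Per1 at -1.15, Cspg4 at 1.06, Zfp36 at -0.95 and Egr1 at 0.66. The smallest here were Igf1r at 0.64, Dhcr7 at -0.61, Fzd4 at -0.38, Junb at 0.34, Dusp1 at 0.33 and Btg2 at -0.25.

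Among genes that fell in both arms 25 differed in size. The epithelial genes of this set fell less with roxadustat, and its widest gaps were Hnf4a at 8.27, Havcr1 at 5.7, Epcam at 5.64, Cldn4 at 5.17, Cdh16 at 4.04, Wnt7b at 3.93, Cdh1 at 3.83 and Btc at 3.09. Next came Hey1 at 2.74, Acta1 at -1.85, Anln at 1.76, Ndc80 at 1.56, Krt7 at 1.49, Krt19 at 1.24, Mcm6 at 0.82 and Il11 at 0.8. These were followed by Actg2 at -0.78, Psap at -0.46, Tkt at -0.46, Ldha at -0.37, Vhl at -0.36, Rpph1 at 0.3, Aldoa at -0.26 and Hsp90aa1 at 0.24. The smallest here was Fam162a at -0.23.

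Genes called higher with roxadustat and not called in control cells were Col10a1 at 2.89, Myocd at 1.91 and Lif at 0.85. Genes called lower with roxadustat and not called in control cells were Il33 at -3.37, Tek at -2.01, Ftl1 at -0.97, Serpinh1 at -0.79, P4hb at -0.65 and Egln2 at -0.44. Genes not called with roxadustat and higher in control cells were Pdgfra at -3.86, Col1a1 at -2.78, Pdgfrb at -1.48 and Cdkn1a at -0.78. Those not called with roxadustat and lower in control cells were Kap at 6.79, Lrp2 at 3.98 and Mki67 at 1.86.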

How the results depend on the processing

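The count of 11526 called genes held within 1.5 times under every alternative but a test for at least 2-fold change, which called 1065 (963 higher and 102 lower). For the difference between arms that test called 2208 in place of 8382. Leaving out each library in turn gave 10641 to 11268 genes and, for the difference between arms, 7935 to 8238. With the replicate block 11457 genes were called. Same-numbered libraries of the 2 days had correlations of -0.25, 0.16, 0.10 and -0.08 in their deviations from the group means, so no pairing by number was seen. So few libraries cannot exclude that same-numbered ones share an animal or a culture. Among named genes H2-Ab1 alone changed its call under the block. Rises made up 46.5% of calls, 54.8% with library size alone, 55.2% with upper-quartile factors and 60.9% with the length trend removed. Removing that trend, an alternative chosen after seeing the data, reversed Lrp2 (-0.30) and Rpph1 (0.21) on the log2 scale, and leaving out day 7 replicates 1 and 2, which stood apart in proximal tubule genes in earlier work on these data, ended the calls of Umod (0.28 on the log2 scale, adjusted p = 0.904) and Slc34a1 (0.77, 0.643), both at low level and with the sign turned, and of Pfkfb3 (adjusted p = 0.084), Dhcr7 (0.0662) and Hey1 (0.0823), among others. The mitochondrial share differed by 0.0645 to 0.285 percentage points when each library was left out, with the highest value, without day 21 replicate 2, past the threshold (exact p = 0.0286). The snoRNA share differed by -0.0258 to -0.0168 points, and without any 1 of the day 21 libraries it missed the threshold (exact p = 0.0571). Of 177 named genes 150 kept direction and call under every alternative other than the 2-fold test, and 169 when each library was left out. Thinning to the depth of the shallowest library left 10281 calls. The cause of these shifts was not tested.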
